A study of Mus musculus with 6 samples.

Results

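The genes described here encode the transcription factors NRF2 (Nfe2l2) and NRF1 (Nfe2l1), the small MAF proteins with which they pair (Mafg, Maff and Mafk), the competing repressor BACH1 (Bach1), the KEAP1 ubiquitin ligase (Keap1, Cul3 and Rbx1) and the KEAP1-binding autophagy receptor p62 (Sqstm1). These 10 genes were chosen by name from the 35275 Ensembl identifiers of the deposited expression table, and all 10 were among the 11500 genes that passed the filter on low values. RNA was measured in ID8-KMF cells, a C57Bl6/J mouse ovarian cancer line obtained from ID8 cells by passage in mice, grown subconfluent on dishes seeded with 0.2% Matrigel. All cells were Rgnef-/-, that is, without the gene Arhgef28 for a guanine nucleotide exchange factor. Of the 6 libraries, 3 came from these knockout cells and 3 from knockout cells with a lentivirus that expresses GFP-Rgnef. The GFP tag and the lentivirus accompany Rgnef in the second group, and their contributions cannot be told apart from that of Rgnef. The sources used here do not give whether each line was a clone or whether replicate libraries stem from different cultures, so p-values here reflect only library-to-library spread, possibly technical. In bulk RNA a smaller share of expressing cells and less RNA per cell cannot be told apart.

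NRF2 is a basic leucine zipper factor that switches on genes for detoxification, glutathione synthesis and NADPH production. In unstressed cells KEAP1 holds it on a ligase built from CUL3 and RBX1, which marks it for destruction. Oxidants and electrophiles modify KEAP1, and p62 can draw KEAP1 into autophagy, and in either case NRF2 builds up. NRF2 binds antioxidant response elements as a dimer with a small MAF, and BACH1 paired with the same small MAFs blocks these sites until heme removes it. NRF1, a relative bound to the endoplasmic reticulum, is released when the proteasome is overloaded and induces proteasome genes. Much of this control acts on protein, and only RNA was measured here.

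The implied depth was 15898965 to 17977069 reads per library, and each of the 10 genes had between 588 and 6513 reads in each library, a counting error of 1.24% to 4.12% of its value. Arhgef28 stood at 50.02 to 57.24 FPKM (a read number scaled to transcript length and to library depth, so a level per length) in the GFP-Rgnef libraries and at 0.1101 to 0.1336 in the knockout libraries, which matched the labels. Of 10 epithelial and mesothelial markers 8 had a mean of at least 1 FPKM, among them Krt8, Krt18, Wt1 and Msln, while Krt7 and Lrrn4 were below it. Their summed level was 1751 to 2607 FPKM with GFP-Rgnef and 1668 to 2650 without, but single markers differed: Krt18 fell (-0.51, limma adjusted p = 0.00625), Bnc1 rose (0.64, limma adjusted p = 0.00499), and Upk3b stood at 92.28 ± 43.1 and 251.1 ± 116.7 FPKM (SD, n = 3) and did not pass the test. None of 12 markers of immune, endothelial, stromal, fat, blood and liver cells reached a mean of 1 FPKM over the 6 libraries, 4 were at 0 in all of them, and their summed level was 0.495 to 1.213 FPKM with GFP-Rgnef and 0.785 to 2.141 without. The stromal marker Pdgfra stood at 0.436 ± 0.0923 and 1.04 ± 0.431 FPKM (SD, n = 3), without overlap (limma adjusted p = 0.114). The part of these markers in the results on the 10 genes was not tested. The libraries numbered 3 stood somewhat apart from the others in both groups. Cul3, Rbx1 and Bach1 were highest in the library numbered 3 in both groups.

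Several of these regulators are themselves known NRF2 targets, and the core of the antioxidant response element, TGACNNNGC, was therefore looked for on both strands of RefSeq promoter windows (GRCm38.p6, from 250 bases before to 50 bases after each start). The core was present in 4 of the 10 genes (40.0%), namely Nfe2l2 and all 3 small MAF genes, against 14.0% of 27025 genes with such a window and 32.4% of 34 listed NRF2 targets. Counted by window, since a gene can have several, it was in 4 of 16 (25%) against 12.4% of 32851. The matches are shown because these are the 4 of the 10 genes in which the letters occur, and capitals mark the core, on the gene's own strand.
Nfe2l2: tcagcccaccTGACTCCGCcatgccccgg
Maff: gggcgtctcaTGACTCTGCcactggaaag
Mafg: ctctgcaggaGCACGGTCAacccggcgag
Mafk: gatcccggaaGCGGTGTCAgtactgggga
The Nfe2l2 stretch lies at chr2:75704885-75704913 on the minus strand, and its core begins at position -240 relative to the start. That of Maff lies at chr15:79346499-79346527 on the plus strand, with the core at -112. For Mafg (chr11:120633751-120633779, minus strand) and Mafk (chr5:139791513-139791541, plus strand) the core reads in the opposite direction to the gene. A match of these letters is a description and not evidence of binding.

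Nfe2l2 RNA was lower without GFP-Rgnef. Nfe2l2 (ENSMUSG00000015839, GRCm38 chromosome 2, 75675513 to 75704641, minus strand, protein coding) had 110.2, 111.7 and 115.0 FPKM in GFP-Rgnef libraries 1, 2 and 3 and 88.25, 92.63 and 82.93 FPKM in knockout libraries 1, 2 and 3. Every knockout library lay below every GFP-Rgnef library, and the gap between the groups exceeded the range within either. The knockout mean was 21.7% below that with GFP-Rgnef, a difference of -0.35 on the log2(FPKM + 1) scale (SE 0.0642, 95% interval -0.5 to -0.2, limma adjusted p = 0.0108). All differences are given in this direction, knockout minus GFP-Rgnef, and a gene is said to have passed the test when the adjusted p of limma over all 11500 genes was below 0.05. Without GFP-Rgnef 2 the difference was also -0.35 and the adjusted p of limma was 0.0532, and over all 16 alternative settings the adjusted p lay between 0.00257 and 0.0532.

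Nfe2l1, the gene of NRF1, did not pass the test. Nfe2l1 (ENSMUSG00000038615, chromosome 11, 96817414 to 96829968, minus strand) had 101.0, 102.0 and 95.27 FPKM in the GFP-Rgnef libraries and 110.9, 98.62 and 101.4 FPKM in the knockout libraries. The groups overlapped, and the difference was 0.06 (SE 0.068, 95% interval -0.1 to 0.21, limma adjusted p = 0.645). In each GFP-Rgnef library Nfe2l2 had the higher level of the pair, and in each knockout library Nfe2l1 did. In the order of mean levels the pair thus changed places at ranks 3 and 4 of the 10 genes, and this exchange was not tested. The order rests on the transcript lengths behind the FPKM values, which are not given. Nfe2l1 had more recovered reads than Nfe2l2 in every library.

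The small MAF genes encode short leucine zipper proteins with no activation domain, with which NRF2, NRF1 and BACH1 pair to bind DNA. Maff (ENSMUSG00000042622, chromosome 15, 79346621 to 79359076, plus strand) had 40.03, 37.79 and 37.95 FPKM with GFP-Rgnef and 28.73, 28.20 and 32.71 FPKM without. The groups did not overlap, and Maff fell by 22.6%, a log2 difference of -0.36 (SE 0.0777, 95% interval -0.54 to -0.18, limma adjusted p = 0.0206). This call was the less stable of the 2 made among the 10 genes: when GFP-Rgnef 1 or 2, or knockout 1 or 2, was left out, the adjusted p of limma was 0.0662 to 0.0843, with differences of -0.38 to -0.32.

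Mafg (ENSMUSG00000051510, chromosome 11, 120625117 to 120633600, minus strand) had 92.49, 91.79 and 90.41 FPKM with GFP-Rgnef and 89.45, 76.42 and 81.05 FPKM without. Mafk (ENSMUSG00000018143, chromosome 5, 139791513 to 139802653, plus strand) had 56.49, 54.58 and 52.96 FPKM against 49.55, 47.56 and 52.49 FPKM. For both genes each knockout library lay below each GFP-Rgnef library, by a narrow gap of under 1 FPKM. Their log2 differences were -0.15 for Mafg (95% interval -0.32 to 0.01, limma adjusted p = 0.2) and -0.13 for Mafk (95% interval -0.28 to 0.02, limma adjusted p = 0.241), so neither passed the test. An exon of Mafg shares 124 bases with Sirt7, which runs on the same strand at 20.7 FPKM on average, and reads there could belong to either gene.

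Summed over Mafg, Maff and Mafk, the small MAF level was 184.8 ± 3.89 FPKM (SD, n = 3) with GFP-Rgnef and 162.1 ± 8.58 FPKM without. Mafg supplied 49.6% ± 0.531 of this sum with GFP-Rgnef and 50.8% ± 2.34 without, and Mafk 29.6% ± 0.343 and 30.8% ± 1.09. The share of Maff was 20.9% ± 0.332 with GFP-Rgnef and 18.4% ± 1.28 without (SD, n = 3), with each knockout library below each GFP-Rgnef library. These sums and shares were not tested, and their sizes rest on the submitters' transcript lengths.

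Bach1, the gene of the repressor that competes with NRF2 for the small MAF partners, lay close to the threshold. Bach1 (ENSMUSG00000025612, chromosome 16, 87698945 to 87733346, plus strand) had 14.15, 15.71 and 17.24 FPKM with GFP-Rgnef and 11.90, 11.75 and 13.22 FPKM without. It had the lowest level of the 10 genes in each group, and its groups did not overlap. The knockout mean was 21.7% below that with GFP-Rgnef, the same relative distance as for Nfe2l2, but the library values spread more (log2 difference -0.33, SE 0.0941, 95% interval -0.54 to -0.11, limma adjusted p = 0.0559). It passed under 4 of the 16 alternatives: with median-of-ratios scaling (limma adjusted p = 0.049), by voom on reads recovered from the FPKM values (0.0433), without both libraries numbered 3 (0.0417) and with the replicate number as a block (0.0136).

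**Figure D1:**
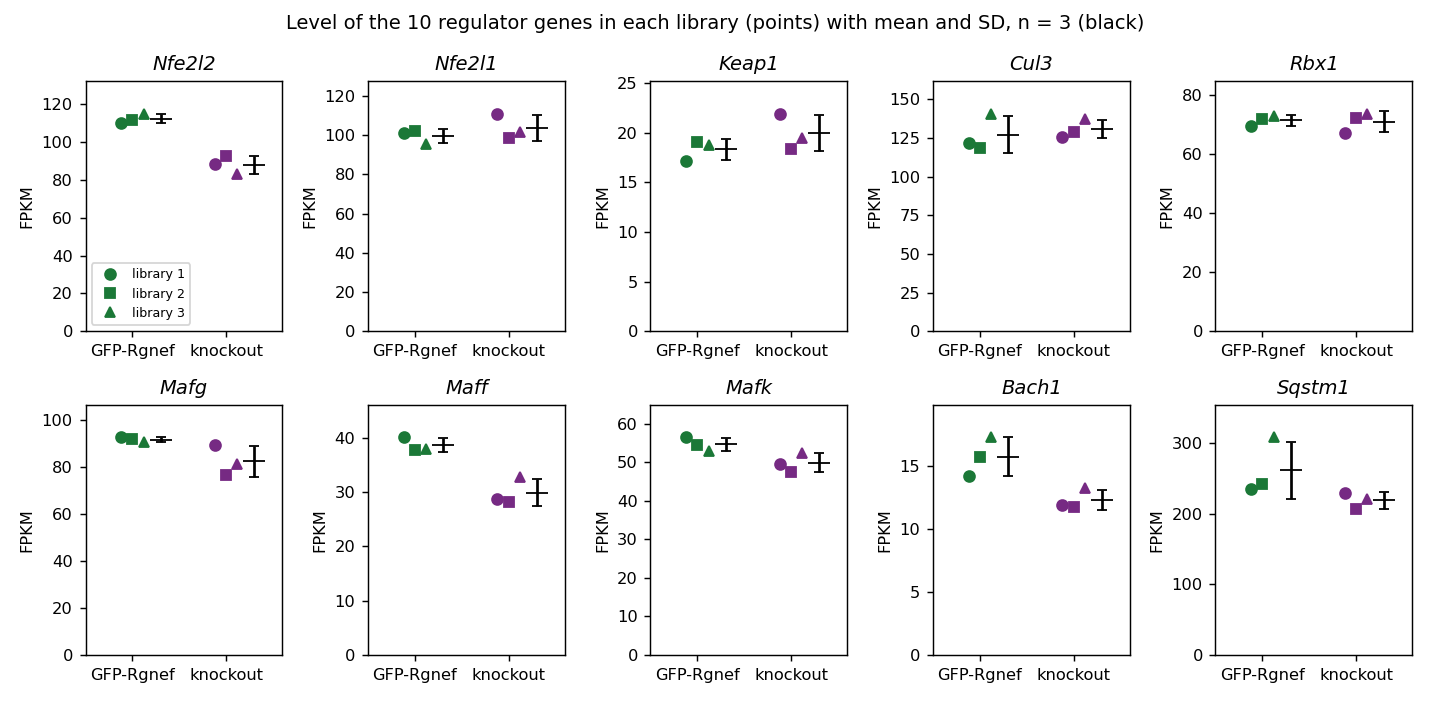
Level in FPKM (vertical axes, each from 0) of the 10 regulator genes in the 3 GFP-Rgnef libraries (green) and the 3 knockout libraries (purple), with circles, squares and triangles for libraries 1, 2 and 3 and black bars for mean and SD. For Nfe2l2, Mafg, Maff, Mafk, Bach1 and Sqstm1 every knockout point lies below every GFP-Rgnef point, while the other 4 genes overlap.

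The 3 genes of the KEAP1 ligase did not pass the test in either direction. Keap1, the substrate adaptor and electrophile sensor (ENSMUSG00000003308, chromosome 9, 21229730 to 21239361, minus strand), had 17.13, 19.08 and 18.72 FPKM with GFP-Rgnef and 21.90, 18.37 and 19.45 FPKM without. Knockout 1 was the highest and knockout 2 lay within the GFP-Rgnef range, so that the groups overlapped (log2 difference 0.11, 95% interval -0.09 to 0.31, limma adjusted p = 0.46). Keap1 is the only one of the 10 genes on chromosome 9, where most tested genes had higher values without GFP-Rgnef: the median difference of its 639 tested genes was 0.28. Over chromosomes 7 and 9 together the median was 0.27 for 1458 tested genes, against -0.04 for 10042 on the others. With every library centred on its chromosome medians, the difference of Keap1 turned to -0.18 (limma adjusted p = 0.257).

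Cul3, the scaffold of the ligase (ENSMUSG00000004364, chromosome 1, 80264923 to 80340480, minus strand), had 122.0, 118.6 and 140.8 FPKM with GFP-Rgnef and 126.0, 128.7 and 137.4 FPKM without. Rbx1, its RING subunit (ENSMUSG00000022400, chromosome 15, 81466296 to 81476369, plus strand), had 69.32, 71.94 and 72.96 FPKM against 67.05, 72.24 and 73.65 FPKM. Values of the groups interleaved for both genes. The log2 differences were 0.04 for Cul3 (95% interval -0.14 to 0.23, limma adjusted p = 0.785) and -0.01 for Rbx1 (95% interval -0.16 to 0.14, limma adjusted p = 0.949). For Cul3 the sign was negative without GFP-Rgnef 2 (-0.01). For Rbx1 the sign also changed between settings, with differences of -0.04 to 0.03 over the 16 alternatives.

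Sqstm1, which encodes p62, had the highest level of the 10 genes. Sqstm1 (ENSMUSG00000015837, chromosome 11, 50199366 to 50210827, minus strand) had 234.8, 242.2 and 308.5 FPKM with GFP-Rgnef and 230.1, 206.4 and 221.2 FPKM without. The groups did not overlap, but GFP-Rgnef 3 stood well above the other libraries, and the difference of -0.25 did not pass the test (SE 0.106, limma adjusted p = 0.171). Without GFP-Rgnef 3 it was -0.12 (limma adjusted p = 0.275).

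Among the 10 genes, 2 fell (Nfe2l2 and Maff) and 0 rose by limma, where 5.34% of all tested genes fell, 8.04% rose and 13.4% did either. At an unadjusted p below 0.05 there were 4 lower and 0 higher (40.0%), where 28.4% of all tested genes lay below it in either direction. Voom on recovered reads called 3 lower and 0 higher, against 577 and 994 of all genes. Libraries of the groups did not overlap for 6 of the 10, each time with the knockout lower, against 16.7% of all tested genes in that direction and 33.4% in either. The median difference of the 10 was -0.14 and that of all tested genes -0.02. Without 1 library at a time the number that fell was 0 (without GFP-Rgnef 2), 1 (without GFP-Rgnef 1, knockout 1 or knockout 2) or 2. The differences were small in size: 8 of the 10 genes differed by less than 0.35 in either direction, and the 5th to 95th percentile of all tested genes ran from -0.4 to 0.48.

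**Figure D2:**
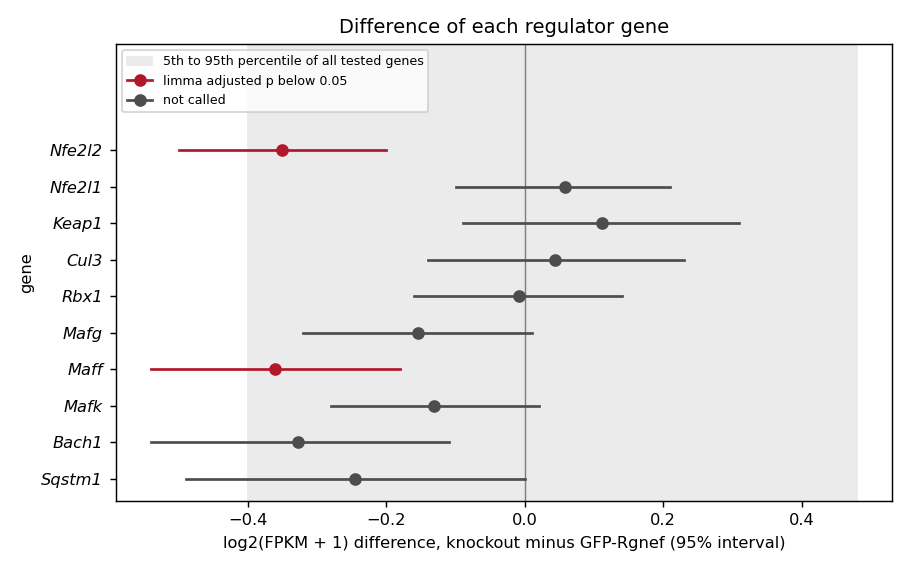
Difference in log2(FPKM + 1), knockout minus GFP-Rgnef, for each of the 10 genes with its 95% interval, and in grey the 5th to 95th percentile of all tested genes (-0.4 to 0.48). Nfe2l2 and Maff, in red, passed the test. The intervals of Bach1 and Sqstm1 also lie to the left of 0, that of Sqstm1 ending close to it. Mafg, Mafk and Rbx1 have differences below 0 with intervals that include 0.

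Since FPKM is a level per length, the NRF2 gene was set against its inhibitor's within a library. The size of this ratio rests on the transcript lengths that the submitters used, which are not given, but its difference between the groups does not. The ratio of Nfe2l2 to Keap1 RNA was 6.43, 5.86 and 6.14 in GFP-Rgnef libraries 1, 2 and 3 and 4.03, 5.04 and 4.26 in knockout libraries 1, 2 and 3. Every knockout ratio was lower. On the log2 scale the ratio was 2.62 ± 0.0676 with GFP-Rgnef and 2.15 ± 0.168 without (SD, n = 3), a difference of -0.47 (two-sided exact permutation test, p = 0.1, the smallest value that 20 splits of 3 against 3 allow). With chromosome centring, which moves Keap1 on chromosome 9, it was -0.15 (exact p = 0.3).

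Position on the chromosome was compared through the 10 nearest tested genes on each side of each regulator. Around Nfe2l2 these 20 neighbours had differences of -0.21 to 1.47 with a median of 0.04, and 0 of them lay below Nfe2l2 at -0.35. Around Keap1 the neighbours had a median of 0.23 and a range of 0.01 to 0.90, and 4 of the 20 lay below Keap1 at 0.11. For Maff 2 of 20 neighbours were lower, for Bach1 3 and for Sqstm1 4, with neighbour medians of -0.10, -0.09 and -0.04. The values of Mafg, Mafk, Cul3, Rbx1 and Nfe2l1 fell inside the spread of their neighbours, with 7 to 17 of 20 below them.

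**Figure D3:**
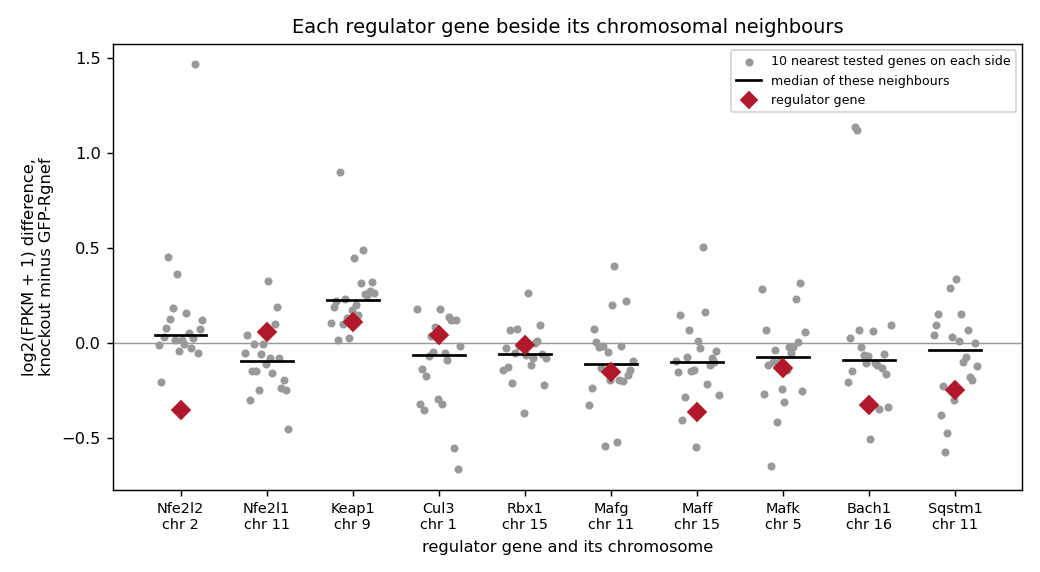
Difference in log2(FPKM + 1), knockout minus GFP-Rgnef, of each regulator gene (red diamond) and of the 10 nearest tested genes on each side of it (grey points, black line at their median). Nfe2l2 lies below all 20 of its neighbours, and all 20 neighbours of Keap1 on chromosome 9 lie above 0.

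Likeness to Nfe2l2 was ranked among 6957 other genes with a mean of at least 10 FPKM. Genes without a symbol, or named only by a Gm number, Rik clone or accession, were left out. The ranked genes whose levels ran most nearly parallel to Nfe2l2 over the 6 libraries were Perp, Gtf3c6 and Ube2g2. Their Pearson correlations with Nfe2l2 on the log2(FPKM + 1) scale were 0.9958, 0.9953 and 0.991, values that largely restate the gap between the groups. Perp, a tetraspan membrane protein gene that p53 induces, stood at 94.95 ± 5.37 FPKM with GFP-Rgnef and 59.01 ± 7.65 without (SD, n = 3). Of the other 9 regulators, Bach1 (0.817) and Maff (0.808) correlated most with Nfe2l2, and Keap1 (-0.55) and Nfe2l1 (-0.498) were the lowest. These coefficients describe 6 libraries and carry no test.

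Many genes that NRF2 is known to induce fell without GFP-Rgnef. Of 38 tested targets, 18 fell and 0 rose by limma (19 and 0 by voom), where 5.34% of all tested genes fell and 8.04% rose. At an unadjusted limma p below 0.05 in either direction there were 26 of 38 (68.4%), against 28.4% of all tested genes. The median difference was -0.46 against -0.02 for all tested genes. Among the 18, Gsta2 passed the filter on low values only through its GFP-Rgnef level (1.45 FPKM, against 0.141 without). With a filter of at least 5 FPKM 17 targets fell. Srxn1, which restores over-oxidized peroxiredoxins, fell from 100.9 ± 14.2 to 62.20 ± 4.14 FPKM (SD, n = 3), and Pgd, whose pentose phosphate enzyme makes NADPH, from 293.9 ± 22.9 to 206.5 ± 11.4. The exporter genes Abcc1 and Abcc4 fell from 97.24 ± 2.55 to 68.80 ± 3.75 and from 18.06 ± 1.19 to 11.27 ± 0.745 FPKM. The log2 differences of these 4 genes were -0.68, -0.51, -0.49 and -0.64, with limma adjusted p from 0.00344 to 0.00534. Aldh3a1, Gsta1, Cbr3 and G6pdx completed the 8 targets with the smallest p, at -3.97, -3.54, -2.12 and -0.47. Gsta1 has near-identical copies, so its reads are uncertain, and G6pdx shares exon bases with Ikbkg on the opposite strand. Of the 8 tested targets on chromosomes 7 and 9, 4 fell. Library 3 was the highest of its group for 37 of the 38 targets with GFP-Rgnef and for 31 without, against 41.9% and 41.0% of all tested genes. Aldh3a1, for example, had 38.88, 48.19 and 103.1 FPKM in GFP-Rgnef libraries 1, 2 and 3 and 2.54, 1.86 and 4.28 in the knockout libraries. The number of targets that fell was 17 without GFP-Rgnef 3, 25 without both libraries numbered 3 and 11 without knockout 2.

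Genes that BACH1 is known to repress, most of them in heme and iron handling, included 1 that rose and 1 that fell among 8 tested. Of all tested genes 8.04% rose and 5.34% fell. All of the 8 BACH1-repressed genes except Slc40a1 and Slc48a1 are also on the NRF2 target list, so this list largely repeats values of that one. Their median difference was -0.25, and 5 of 8 lay below an unadjusted p of 0.05 in either direction (limma, 62.5% against 28.4% of all tested genes). Slc48a1 had a difference of -0.27 and did not pass the test (limma adjusted p = 0.0758). The iron exporter gene Slc40a1 rose from 0.818 ± 0.175 to 2.09 ± 0.562 FPKM (SD, n = 3), on 16 to 25 and 38 to 69 reads per library. Its difference was 0.75 on the log2(FPKM + 1) scale (limma adjusted p = 0.0205), which shrinks differences at such low levels. Over the alternatives it was 0.63 to 1.32. The quinone reductase gene Nqo1, shared with the NRF2 list, fell from 136.1 ± 62.1 to 52.83 ± 22.6 FPKM (log2 difference -1.33, limma adjusted p = 0.0381). The call of Slc40a1 was lost when either GFP-Rgnef 1 or 2, or either knockout 1 or 2, was left out (limma adjusted p up to 0.0779). That of Nqo1 was lost when GFP-Rgnef 2 or 3, or knockout 1 or 2, was left out, and also with chromosome centring, without trend or without a filter (limma adjusted p up to 0.139). Hmox1, the heme oxygenase gene, stood at 38.66 ± 4.27 and 46.45 ± 5.19 FPKM and did not pass the test (limma adjusted p = 0.149).

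Proteasome genes, which NRF1 induces, were mostly lower without GFP-Rgnef although Nfe2l1 itself did not pass the test. The median difference was -0.22, and 14 of 32 tested genes fell while 1 rose, where 5.34% of all tested genes fell and 8.04% rose. At an unadjusted p below 0.05 in either direction (limma) there were 24 of 32 (75.0%), against 28.4% of all tested genes. All 27 on chromosomes other than 7 and 9 had differences below 0, where 5955 of 10042 tested genes on those chromosomes did, and all 5 on chromosome 7 or 9 had differences above 0, where 1297 of 1458 did. Psmd3, a lid subunit, fell from 232.1 ± 5.91 to 176.6 ± 6.46 FPKM, the ubiquitin receptor gene Adrm1 from 139.5 ± 1.34 to 107.9 ± 4.90, and Psmb3, a core subunit, from 246.9 ± 13.1 to 190.0 ± 7.33 (SD, n = 3). The log2 differences of Psmd3, Adrm1 and Psmb3 were -0.39, -0.37 and -0.38, with limma adjusted p from 0.00509 to 0.00853. Psmd8 on chromosome 7 was the gene that rose, from 77.83 ± 0.884 to 101.4 ± 2.70 FPKM, and with chromosome centring its call was lost (limma adjusted p = 0.258). The number that fell was 5 and 3 when GFP-Rgnef 1 and 2 were left out in turn, 6 and 5 when knockout 1 and 2 were, and 9 with chromosome centring.

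Further upstream, few partners of the regulators passed the test. Among 14 tested genes of p62 partners and selective autophagy, 1 fell and 1 rose, where 5.34% of all tested genes fell and 8.04% rose. Of these 14, 12 had differences below 0 (median -0.12), against 6116 of all 11500 tested genes. At an unadjusted p below 0.05 in either direction (limma) there were 7 of 14, against 28.4% of all tested genes. The groups did not overlap for 8 with the knockout lower and 2 with it higher, against 16.7% of all tested genes each way. Gabarapl1, an ATG8 family member, fell from 63.58 ± 2.20 to 45.66 ± 3.43 FPKM (SD, n = 3, log2 difference -0.47, limma adjusted p = 0.00622). Tollip, on chromosome 7, rose from 52.94 ± 2.32 to 70.73 ± 0.669 (log2 difference 0.41, limma adjusted p = 0.00529), a call that was lost with chromosome centring (difference 0.16, limma adjusted p = 0.202). Among 8 tested genes of proteins that bind KEAP1 or stabilise NRF2, 2 fell and 0 rose by limma, against the same 5.34% and 8.04%. Their median was -0.12, and 3 of the 8 lay at an unadjusted limma p below 0.05 in either direction, against 28.4% of all tested genes. Cdkn1a, the gene of p21, fell from 62.06 ± 2.17 to 48.85 ± 2.53 FPKM and Pgam5, a mitochondrial phosphatase, from 19.11 ± 0.854 to 15.54 ± 0.719 (limma adjusted p = 0.015 and 0.0439). The call of Cdkn1a was lost without GFP-Rgnef 2 or knockout 2, and that of Pgam5 when any 1 of the 6 libraries was left out and under 4 other settings (limma adjusted p up to 0.155).

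The calls on the turnover machinery were higher and lay on chromosome 7 or 9, where 470 of 1458 tested genes rose and 15 fell. Of all tested genes 8.04% rose and 5.34% fell, so single calls in such short lists do not set these lists apart. In cullin neddylation and exchange 1 of 11 tested genes rose and 0 fell (limma, median -0.03): Rnf7, a RING subunit related to Rbx1, on chromosome 9, from 80.78 ± 4.21 to 102.0 ± 7.73 FPKM (SD, n = 3). On the GSK3, beta-TrCP and HRD1 route, which degrades NRF2 independently of KEAP1, 1 of 7 rose and 0 fell (limma, median 0.02): Gsk3a, a kinase gene on chromosome 7, from 31.41 ± 2.02 to 39.55 ± 2.34. The limma adjusted p were 0.0262 and 0.0301. Both calls were lost with chromosome centring, at differences of 0.04 and 0.07. That of Gsk3a was also lost without any 1 of the 6 libraries, and that of Rnf7 when GFP-Rgnef 1 or 2, or knockout 2 or 3, was left out. The most abundant genes of these lists that did not pass were Ube2m, a NEDD8-conjugating enzyme gene, at 182.2 ± 10.6 and 210.1 ± 4.66 FPKM, and Skp1a, an SCF ligase subunit gene, at 255.4 ± 24.5 and 239.1 ± 24.2 (SD, n = 3). Of 9 tested genes of NRF1 processing 1 fell, Vcp, the segregase gene, from 570.4 ± 29.1 to 468.6 ± 29.3 FPKM (limma adjusted p = 0.0323). This call was lost when GFP-Rgnef 1 or 2, or knockout 2 or 3, was left out and under 4 other settings, chromosome centring among them (limma adjusted p up to 0.145). Nploc4, a cofactor of that segregase, stood at 129.6 ± 5.96 and 111.3 ± 2.61 FPKM (limma adjusted p = 0.0534).

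**Figure D4:**
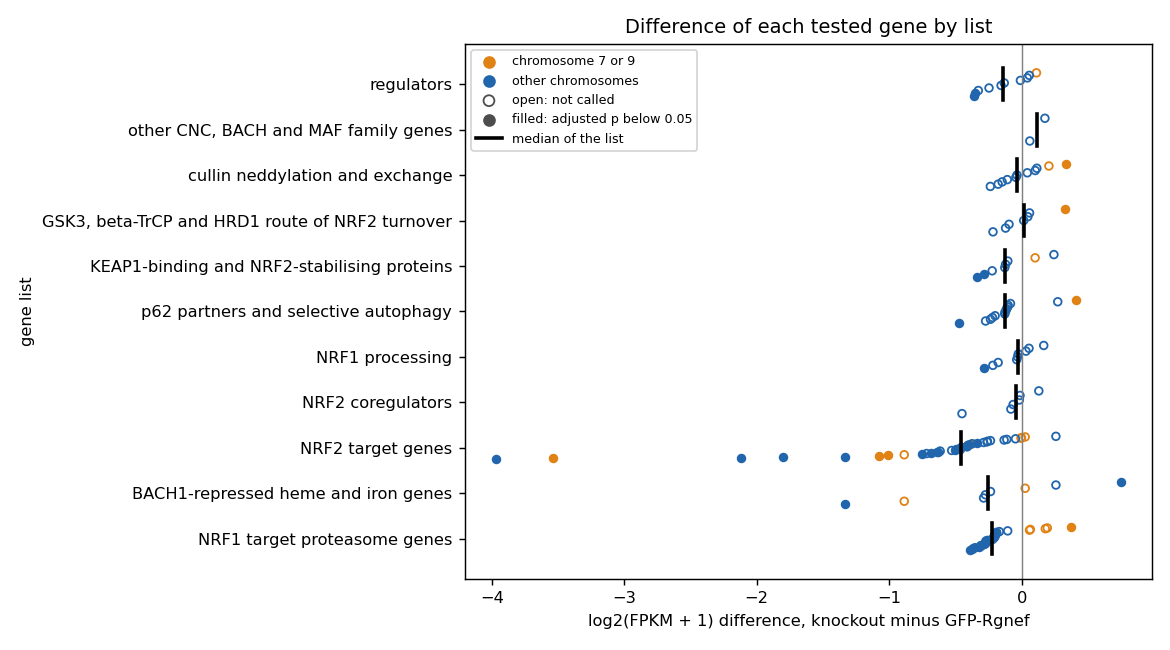
Difference in log2(FPKM + 1), knockout minus GFP-Rgnef, of each tested gene in the regulator list and 10 related lists, filled where limma's adjusted p was below 0.05, orange on chromosome 7 or 9 and blue elsewhere, with the list's median as a black line. The NRF2 targets have the lowest median (-0.46), and the 5 orange proteasome genes lie above 0 while the 27 blue ones lie below.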

How the data were processed

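Poly-T selected messenger RNA of 6 libraries was sequenced, per the labels' protocols. The authors deposited 1 table of FPKM values per Ensembl gene and library, all columns of which were used. The submitters' processing notes name CASAVA 1.8, TopHat2 2.0.9, DESeq2 and the build mm10. Their counter, annotation and strand setting are not given in the sources used here. The transcript lengths behind the FPKM values are therefore unknown, and levels compared between genes, such as ranks, shares and ratios, depend on them. Gene symbols and positions were looked up in GENCODE M21 on GRCm38 (mm10), where 34490 of 35275 identifiers matched. Promoter windows came from RefSeq.

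Values were taken as log2(FPKM + 1), genes whose mean over the libraries was below 0.5 FPKM were left out, and limma 3.58.1 (R 4.3.3, trend on) gave p-values, which were adjusted by Benjamini-Hochberg across every gene tested. It was tested on simulated data. Reads were recovered from the steps of the FPKM values: for each of the 19655 genes above 0 the annotated exon length (4228 genes) or the smallest length (15427 genes) made all values whole within 0.02. Recovered reads summed to 99.77% to 99.85% of the implied depth. Counting errors cover counting only.

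Members and lists were chosen with earlier results of these data known. All 10 members are named. From each related list up to 4 genes that passed, by smallest p, are named (8 for NRF2 targets), filled to 2 by abundance. A gene that this rule would name is not reported here. Other listed genes named with values, such as Hmox1, were chosen after their values were seen. Python 3.11.15, pandas 2.3.3 and matplotlib 3.10.9 made tables and plots. Alternatives covered pseudocount, filter, scaling, trend, replicate block, recovered reads, chromosome medians and left-out libraries.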

Additional observations from a re-analysis of the deposited data

How the results depend on the processing

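Under each of the 16 alternatives 0 members rose. The number of members that fell was 4 with the replicate block and 0 to 2 with 1 library left out. With 1 library left out, 198 to 578 of all genes fell and 455 to 850 rose, 11 to 20 NRF2 targets fell and 3 to 11 proteasome genes fell. With chromosome centring 389 genes fell and 496 rose, and 9 proteasome genes fell and 0 rose. Without a filter 394 genes and 9 proteasome genes fell, and without limma's trend 8 proteasome genes fell. Without both libraries numbered 3, 1048 genes fell, 1 NRF2 target rose and 2 proteasome genes rose. With the replicate block 1253 genes fell and 1517 rose, 30 NRF2 targets fell and 1 rose, and 25 proteasome genes fell and 3 rose. The cause was not tested. The alternatives for the proteasome list were chosen after seeing the data.

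Same-numbered libraries had correlations of their deviations from the group means of 0.448, -0.0321 and 0.647 over 8576 genes, and GFP-Rgnef 2 correlated best with knockout 1 (0.576). Since the correlation was not above 0.1 for each number, the numbers were not taken to pair the libraries, and what the libraries numbered 3 have in common was not tested. The block added the calls of Bach1 and Sqstm1 (limma adjusted p = 0.0136 and 0.044) among the members. With the block the log2 ratio of Nfe2l2 to Keap1 differed by -0.47 (exact sign-flip permutation p = 0.25, the smallest value that sign flips of 3 same-numbered pairs allow). Over the 10 alternatives run for that ratio it differed by -0.57 to -0.15.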

Other observations

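Of 7 other listed members of the same transcription factor families only Maf and Nfe2l3 passed the filter on low values, and neither passed limma's test (0 of 2 also at an unadjusted p below 0.05). The large MAF gene Maf stood at 13.39 ± 1.22 FPKM with GFP-Rgnef and 14.07 ± 1.83 without, and Nfe2l3, the third NRF gene, at 3.32 ± 1.04 and 3.90 ± 1.21 (SD, n = 3).

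Among 6 genes of NRF2 coregulators 0 passed limma's test, 1 of them at an unadjusted p below 0.05. Rxra, a nuclear receptor that binds NRF2 and represses it, stood at 54.47 ± 4.88 FPKM with GFP-Rgnef and 40.22 ± 9.62 without (SD, n = 3, log2 difference -0.45, limma adjusted p = 0.0963). With 1 library left out the difference was -0.29 (without knockout 2, limma adjusted p = 0.257) to -0.63 (without knockout 3, limma adjusted p = 0.013), and only the latter of these 6 passed the test.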
